A study of Rattus norvegicus with 18 samples.

Results

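Kidney cortex after Roux-en-Y gastric bypass (RYGB) was compared with cortex of untreated diabetic rats, gene by gene. The comparison used the 12 libraries titled RYGB or disease, 6 of each, out of 18 in the series. All rats were Zucker diabetic fatty (ZDF) rats, a strain in which rats with 2 copies of a leptin receptor mutation, fa, grow obese and get type 2 diabetes. The disease group was diabetic and fa/fa. The RYGB group was labelled diabetic and fa/fa as well and had gastric bypass, so both groups carry the same genotype and both are described as diabetic. The healthy control group, used here for the shared estimate of spread and for side-by-side levels, was lean, fa/+ and not diabetic. The labels give neither age, sex, time after surgery nor batch. They do not say whether the disease rats had a sham operation or were matched for weight. They do not state that each library came from a separate rat, so the p-values cover only how far these libraries spread, which may be technical. The tissue was flash-frozen cortex, and the libraries were made from polyadenylated RNA with a stranded kit. Libraries are written D1 to D6 for disease, R1 to R6 for RYGB and H1 to H6 for healthy control, by replicate number. Of 18420 gene rows, 13988 reached 10 normalised reads in 6 or more libraries and were tested.

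Gastric bypass joins a small gastric pouch to a limb of the jejunum, so that food passes by most of the stomach and the duodenum. It is known to lower blood glucose and body weight in obese rats and people with type 2 diabetes. In the diabetic kidney, filtered glucose and protein load the proximal tubule, injured tubule cells switch on genes such as Havcr1 and Spp1, and matrix collects in glomeruli and between tubules. Cortex holds mostly proximal tubule, with glomeruli, distal segments, vessels and interstitial cells. In such bulk samples fewer cells of a type and less RNA per cell cannot be told apart.

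Kidney cortex markers were present in all 12 libraries. The slit diaphragm gene Nphs1 had 2353 to 3722 in the disease libraries (median 3255) and 2758 to 3337 in the RYGB libraries (median 2966), and uromodulin Umod of the thick ascending limb had a median of 23062 (12920 to 52350) in disease and 47294 (33170 to 88918) in RYGB. Reads counted in genes numbered 8157977 to 37142922 in disease and 12470525 to 42713246 in RYGB. Of 5 library measures compared between the groups, none passed an exact two-sided permutation test after adjustment over the 5. The share of counted reads outside annotated genes was 30.02 to 39.7% in disease and 27.62 to 33.71% in RYGB (means 34.1 and 30.52%, p = 0.0974, exact test, adjusted 0.243). The share aligned to several places was 13.46 to 16.01% in disease and 15.1 to 18.13% in RYGB (means 14.76 and 16.47%, p = 0.0346, exact test, adjusted 0.173). The smallest p this design allows is 0.00216. Both shares differ in mean between the groups, so each was also put into the model as a covariate, a choice made after seeing the data. The covariate takes up part of the group difference by construction, and whether the shares bear on the genes' levels was not tested beyond these fits.

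After bypass 258 genes were higher and 294 lower than in disease, 552 of 13988 in all, or 3.95% (1.84% higher and 2.1% lower). Called means an adjusted p below 0.05 in limma's test with Benjamini-Hochberg adjustment. Values are normalised read counts (reads divided by the authors' size factor per library). A fold is the ratio of group means. Log2 fold changes are RYGB minus disease on log2(value + 1), ± SE, and a second value in brackets is the adjusted p. An unadjusted p below 0.05 was found for 2901 genes. The 6 RYGB libraries lay wholly on one side of the 6 disease libraries in 363 genes, or 2.6%, with RYGB higher in 157 (1.12%) and lower in 206 (1.47%). Of the called genes 249 differed at least 2-fold in their means. Over all tested genes the median log2 fold change was -0.001. All 552 kept their direction with either covariate, with fold changes at a median of 86.7% (share outside genes) and 85.7% (share aligned to several places) of those without. Far fewer passed the threshold: 165 genes were called with the share outside genes in the model and 75 with the share aligned to several places, and 65 of the 552 were called in both fits. The count without 1 library ran from 261 (without D2) to 819 (without D5), and 212 genes were called in each of the 18 fits that left out 1 library. It was 272 without R1, 285 without D1, 289 without R4, 325 without R5, 338 without R6 and 362 without R2. It was 801 without R3. Fitting the 12 libraries alone called 426 genes. Against healthy control the same fit called 4.44% of genes in RYGB (2.46% higher and 1.98% lower) and 1.61% in disease (0.579% higher and 1.03% lower). These comparisons share libraries with the one described here, so their values are only set side by side.

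**Figure D1:**
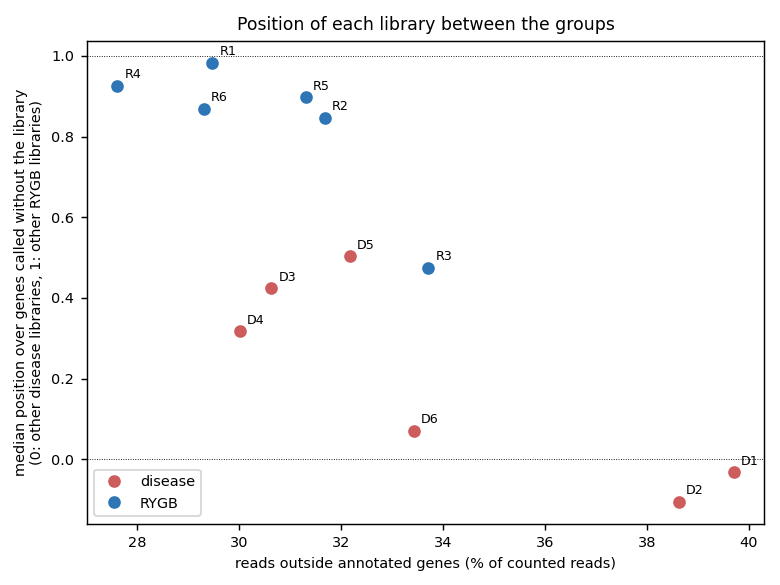
Position of each disease (red) and RYGB (blue) library between the groups (vertical axis; 0 is the mean of the other disease libraries and 1 that of the RYGB libraries, as the median over genes called without that library) against the share of counted reads outside annotated genes (horizontal axis, %). D5 at 0.503, R3 at 0.475, D3 at 0.425 and D4 at 0.317 lie between the groups, and the other 8 libraries lie between -0.105 and 0.0711 or between 0.847 and 0.983.

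The libraries did not fall into compact groups. For each library, genes were called without it, and its place on each gene was set between the other disease libraries (0) and the other RYGB libraries (1). The median place was 0.503 for D5, 0.425 for D3, 0.317 for D4 and 0.475 for R3. It was -0.105 to 0.0711 for D1, D2 and D6 and 0.847 to 0.983 for the other RYGB libraries. D3, D4 and D5 had 30.64, 30.02 and 32.18% of reads outside genes, the 3 lowest of the disease group, and R3 had 33.71%, the highest of the RYGB group. The part of that share in the results was not tested beyond the fits with the covariate. D3, D4 and D5 also carry later sample numbers in their descriptions than D1, D2 and D6, and R3 is numbered between R1 and R2. What these numbers stand for is not given, and their part in the results was not tested.

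The libraries of 1 group also differed in their clock genes. In the daily clock of cells Arntl and Clock switch on Nr1d1, Dbp and Ciart, and Nr1d1 holds Arntl back, so that Arntl and Nr1d1 peak at different times of day. Nr1d1 was 2103, 5364 and 2780 in R1, R2 and R3 and 213, 127 and 110.2 in R4, R5 and R6. Ciart was 237, 557 and 393 and 30.5, 18.8 and 13.2 in the same order, and Arntl went the other way, with 112, 51.0 and 45.9 and then 469, 587 and 922. Among disease libraries D1 and D2 stood apart, with 1188 and 722 of Arntl against 58.3 to 175 in the other 4, and Arntl ran from 66.4 to 757 in healthy control. These 3 genes were chosen after their values were seen, and none of them was called between the groups (adjusted p = 0.647 to 0.987). R4, R5 and R6 also carry later sample numbers than R1, R2 and R3. D6 is numbered with D1 and D2, from which its Arntl differed. The labels do not say what these numbers stand for, and they give no time of day for the tissue. The first 2 components of the 22 tested clock genes (43.7 and 29.1% of their variance) were therefore put into the model as covariates, also after seeing the data. All 552 genes kept their direction, 280 genes were called (129 higher and 151 lower), and 229 of the 552 were among them. Of the 114 called genes taken by the rule for named genes 70 stayed called with the clock components and 44 did not. The 44 were Nes, Col1a1, Col4a1, Col27a1, Timp2, Id3, Bmp4, Id1, Pdgfra, Gzmk, Nkg7, Cd4, Serpinf2, Pros1, Birc3, Ccl2, Cldn10, Pth1r, S100g, Fgfr4, Hmox1, Cp, Slc11a2, Heph, Hif3a, Fmo4, Me1, Miox, Mgea5, Pdk3, Srebf1, Uqcrh, Cox6c, Ctsz, Ctsc, Ctsd, Atp6v1h, Bhlhe40, Agt, Igfbp7, Slc38a3, Hao1, Oat and Adipoq. Bhlhe40 is itself 1 of the 22 clock genes that make the components, so its loss of the call is partly built in. As with the read shares, the components take up part of the group difference by construction. The part of the clock in the results was not tested beyond this fit.

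The cell cycle genes gave the largest share of falls of any gene list with at least 5 tested members. Dividing cells copy their DNA in S phase, with the help of the Mcm helicase subunits, and then make a spindle and divide under the kinase Cdk1. Of 36 tested cell cycle genes 18 fell and 0 rose, against 2.1% lower over all tested genes, and the list's median log2 fold change was -0.96. In 17 members the RYGB and disease libraries did not overlap, against 2.6% of all tested genes. Of the falls 13 were called in each of the 18 fits without 1 library, against 124 of 294 over all tested genes. The count of falls was 8 with the share outside genes as a covariate and 4 with the share aligned to several places. It was 12 with the clock components and 10 with a minimum value of 50 in place of 10.

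Genes of mitosis were among the falls. Prc1, which bundles microtubules between the separating chromosomes, had a normalised read count of 61.2 to 143 in the disease libraries (median 96.4) and 18.8 to 33.0 in the RYGB libraries (median 22.0). Every RYGB library was below every disease library, and the fall was 4.09-fold (log2 fold change -1.97 ± 0.27, adjusted p = 0.000471). The spindle assembly factor Tpx2 fell 2.81-fold, from a median of 116 (86.8 to 194) to 46.3 (28.7 to 62.3), with a log2 fold change of -1.48 ± 0.22 (adjusted p = 0.000779). The proliferation marker Mki67, a protein of the chromosome surface, fell from a median of 168 (109.5 to 289) to 50.7 (35.3 to 74.3), with a log2 fold change of -1.70 ± 0.32 (adjusted p = 0.00444). Both of these were also free of overlap between the groups. Survivin Birc5, a chromosomal passenger protein, had 15.5 to 29.9 in the disease libraries (median 21.2) and 3.28 to 7.62 in the RYGB libraries (median 6.27), with a log2 fold change of -1.73 ± 0.27 (adjusted p = 0.0012). Ect2, which starts the cleavage furrow, had 42.1 to 104 in the disease libraries (median 71.1) and 7.62 to 33.0 in the RYGB libraries (median 14.6), with a log2 fold change of -2.002 ± 0.35 (adjusted p = 0.00296), and Cdk1 had 38.9 to 62.3 in the disease libraries (median 53.2) and 14.5 to 24.0 in the RYGB libraries (median 18.6), with a log2 fold change of -1.42 ± 0.25 (adjusted p = 0.00318). All 6 of these genes had low to moderate counts, and the RYGB libraries were the low ones throughout. Against healthy control the RYGB libraries were lower too in Prc1 (-1.65 ± 0.27, adjusted p = 0.0023), Tpx2 (-1.11 ± 0.22, adjusted p = 0.00735) and Mki67 (-1.31 ± 0.32, adjusted p = 0.0274). In these comparisons H4 stood apart from the other healthy control libraries, with 29.4 for Prc1 (the others 75.1 to 113) and 39.3 for Mki67 (144 to 204), both inside the RYGB range. Prc1, Tpx2 and Birc5 stayed called with either read share as a covariate (adjusted p at most 0.0376). Mki67, Ect2 and Cdk1 stayed called with the share outside genes as a covariate but not with the share aligned to several places (0.0633 to 0.129).

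Genes of DNA copying were split. Of 6 tested Mcm helicase genes Mcm3, Mcm5 and Mcm6 fell, with log2 fold changes of -0.84, -1.12 and -0.70. Mcm2 (-0.19, adjusted p = 0.261), Mcm4 (-0.31, 0.214), Mcm7 (0.020, 0.936) and the sliding clamp Pcna (-0.054, 0.782) did not pass. These DNA-copying genes were chosen from the list after their values were seen. The calls of Mcm3, Mcm5 and Mcm6 held in 15, 11 and 14 of the 18 fits without 1 library and with neither covariate.

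**Figure D2:**
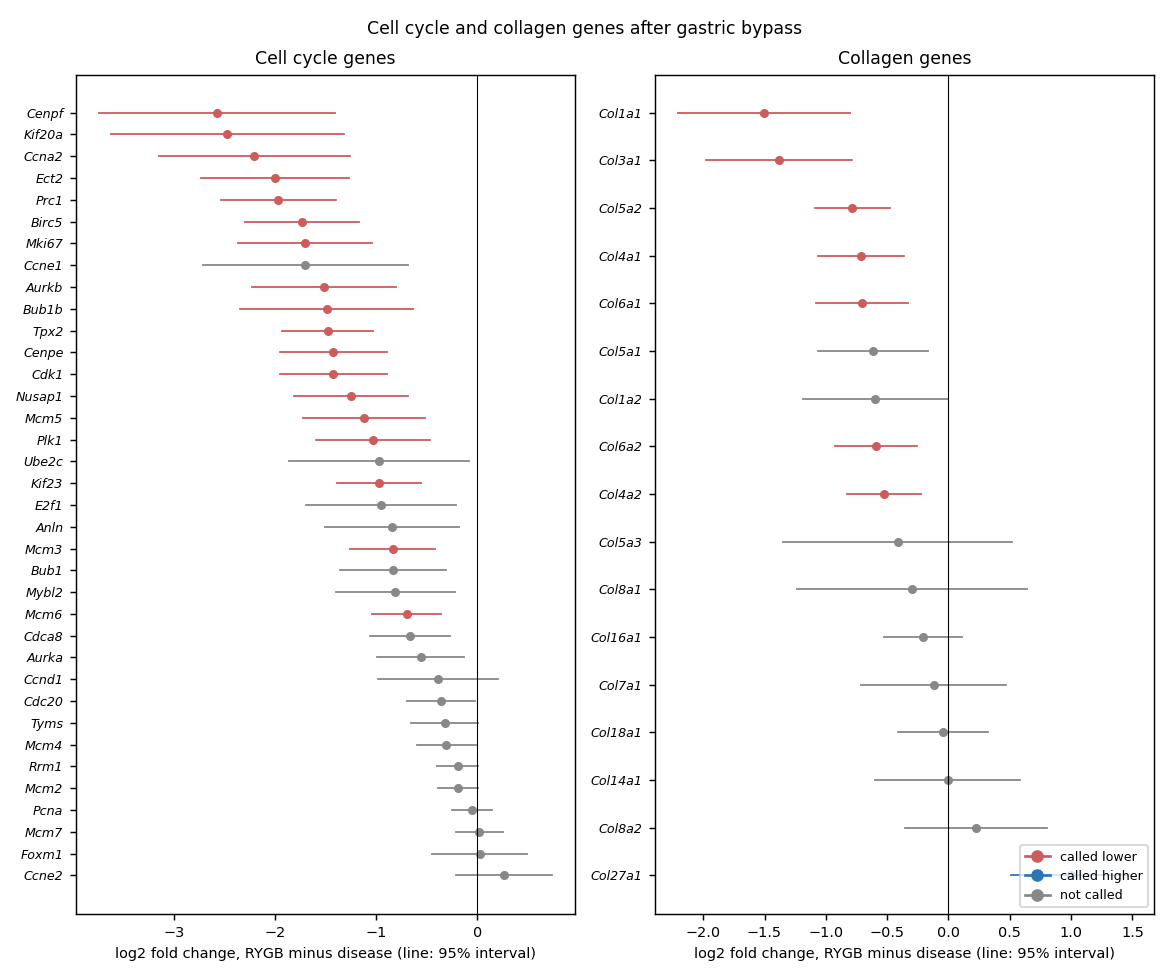
Log2 fold change of RYGB minus disease (horizontal axis; point, with a line for the 95% interval) of the 36 tested cell cycle genes (left) and 17 tested collagen genes (right), 6 libraries a group. Red points were called lower, the blue point higher and grey points were not called; 18 cell cycle genes and 7 collagen genes are red.

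Promoters of the cell cycle genes that fell are shown because these genes moved together. A shared sequence, the cell cycle genes homology region (CHR, TTTGAA), and the CCAAT box (CCAAT) are known from promoters of genes that peak in mitosis, and a site of E2F factors (TTCCCGC) from genes of DNA copying. RefSeq promoters of the GRCr8 build, 250 bases before to 50 after the start, were searched on both strands. The authors' files use another build (Rnor 5.0), and no coordinate of theirs was compared. Capitals mark the letters of the CHR and of the CCAAT box and their reverse complements. The promoters are Prc1 at chr1:143659231-143659530 (plus strand), Cdk1 at chr20:19265043-19265342 (plus strand), Birc5 at chr10:103571896-103572195 (plus strand) and Ect2 at chr2:111966577-111966876 (minus strand).
Prc1: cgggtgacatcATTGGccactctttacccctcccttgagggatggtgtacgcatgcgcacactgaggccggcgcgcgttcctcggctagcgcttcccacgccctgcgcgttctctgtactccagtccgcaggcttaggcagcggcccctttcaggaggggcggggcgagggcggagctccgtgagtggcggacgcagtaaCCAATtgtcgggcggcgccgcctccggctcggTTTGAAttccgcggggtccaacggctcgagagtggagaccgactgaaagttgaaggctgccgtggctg
Cdk1: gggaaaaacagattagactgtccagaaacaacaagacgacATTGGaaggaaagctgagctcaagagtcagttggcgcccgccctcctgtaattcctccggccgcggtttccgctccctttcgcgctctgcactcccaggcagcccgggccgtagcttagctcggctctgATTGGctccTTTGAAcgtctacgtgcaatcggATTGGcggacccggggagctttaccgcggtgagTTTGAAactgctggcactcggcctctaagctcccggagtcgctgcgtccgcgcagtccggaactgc
Birc5: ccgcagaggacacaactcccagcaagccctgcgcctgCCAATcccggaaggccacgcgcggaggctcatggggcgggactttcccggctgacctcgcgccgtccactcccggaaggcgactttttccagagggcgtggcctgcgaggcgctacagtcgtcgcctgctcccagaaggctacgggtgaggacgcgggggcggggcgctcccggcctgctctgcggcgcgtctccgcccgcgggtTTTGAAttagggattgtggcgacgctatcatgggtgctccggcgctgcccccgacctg
Ect2: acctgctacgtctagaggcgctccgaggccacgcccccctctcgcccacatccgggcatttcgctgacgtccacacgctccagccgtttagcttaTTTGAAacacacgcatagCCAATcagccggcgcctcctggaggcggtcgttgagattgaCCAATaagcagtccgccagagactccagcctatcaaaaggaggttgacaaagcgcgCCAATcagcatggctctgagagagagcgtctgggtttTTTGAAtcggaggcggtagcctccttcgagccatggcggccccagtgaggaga

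Among the 18 genes that fell, 15 had a promoter entry. TTTGAA was in 10 of these 15 (66.7%), CCAAT in 14 (93.3%), both in 9 (60%) and TTCCCGC in 3 (20%). Of the 12 cell cycle genes with an entry that were not called, 4 (33.3%) held TTTGAA, 5 (41.7%) CCAAT, 2 (16.7%) both and 2 (16.7%) TTCCCGC. Among 9362 tested genes with an entry the shares were 11.5, 37.2, 4.6 and 8.13%, and among all 27457 promoters 18.1, 37.7, 7.25 and 4.47%, in the same order. In Prc1, Cdk1, Birc5 and Ect2 the TTTGAA nearest the start lay 18, 16, 8 and 3 bases before it. In Mki67, Kif23 and Bub1b, which fell too, it lay 99, 79 and 4 bases before the start. In Plk1, Cenpf and Nusap1 it lay 6, 2 and 9 bases after the start. These matches are a description of the letters in the window.

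Collagens fell next most often. Collagens I, III and V are fibrillar collagens made mainly by fibroblasts, and collagen IV forms basement membranes. Of 17 tested collagen genes 7 fell and 1 rose, against 2.1% lower and 1.84% higher over all tested genes. The list's median log2 fold change was -0.53. Col3a1 had 2824 to 3956 in the disease libraries (median 3233) and 789 to 1888 in the RYGB libraries (median 1278), 2.52 times lower after bypass (log2 fold change -1.38 ± 0.29, adjusted p = 0.0107). Col1a1 fell 2.91-fold, from a median of 1023 (656 to 1504) to 384 (239 to 431), with a log2 fold change of -1.51 ± 0.34 (adjusted p = 0.0163), and Col5a2 fell from a median of 696 (601 to 857) to 415 (349.7 to 465), with a log2 fold change of -0.78 ± 0.15 (adjusted p = 0.00431). In all 3 genes the RYGB libraries lay below every disease library. The basement membrane gene Col4a1 fell from a median of 7048 (6371 to 10539) to 4697 (3597 to 5495), with a log2 fold change of -0.72 ± 0.17 (adjusted p = 0.0219). Col27a1, a fibrillar collagen best known from cartilage, went the other way, from a median of 552 (514 to 872) to 1416 (616 to 1657), with a log2 fold change of 1.000 ± 0.24 (adjusted p = 0.0226), with overlap. The count of 7 was 3 without D1 or D2 and 4 without R2, R3 or R5. It was 2 with the share outside genes as a covariate, 0 with the share aligned to several places and 2 with the clock components. Col3a1 and Col5a2 stayed called with the share outside genes as a covariate but not with the share aligned to several places (0.0696 to 0.0891). Col1a1, Col4a1 and Col27a1 were not called with either covariate (0.0633 to 0.353). Col4a1 was not called without D1 or D2 (0.0566 to 0.0599). Col27a1 was not called without R4, R5, R6, D1 or D2 (0.0526 to 0.0567).

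Of 37 other matrix genes 8 fell and 1 rose (median -0.26), against 2.1% lower and 1.84% higher over all tested genes. The gelatinase Mmp2, a protease that cuts denatured collagen and collagen IV, had 217 to 466 in the disease libraries (median 329) and 71.7 to 152 in the RYGB libraries (median 137), with a log2 fold change of -1.43 ± 0.25 (adjusted p = 0.00262). Adamts1, a protease that cuts the proteoglycan versican, had 1542 to 2760 in the disease libraries (median 1828) and 781 to 1182 in the RYGB libraries (median 1067), with a log2 fold change of -0.90 ± 0.14 (adjusted p = 0.000913). Neither gene had any overlap between the groups. Thrombospondin 2 (Thbs2), a secreted protein that binds matrix and proteases, fell from a median of 187 (119 to 242) to 89.5 (68.9 to 144), with a log2 fold change of -0.95 ± 0.19 (adjusted p = 0.00686), and here R4 (144) reached into the disease range. Mmp2 and Thbs2 were also lower in RYGB than in healthy control (-1.73 ± 0.25, adjusted p = 0.000716, and -1.12 ± 0.19, adjusted p = 0.00243). H4 was again low in Mmp2 (177, the other healthy control libraries 430.0 to 574) and in Col3a1 (880.7, the others 3067 to 3753). Cyr61, a matricellular protein induced by growth factors and stretch, was the one that rose, from a median of 1562 (1367 to 2149) to 3362 (2385 to 7125), with a log2 fold change of 1.18 ± 0.29 (adjusted p = 0.0279). The count of 8 falls was 3 without D2 or R5 and 5 without D1, R1 or R6. It was 3 with the share outside genes as a covariate, 1 with the share aligned to several places and 3 with the clock components. Adamts1 stayed called with either read share as a covariate (adjusted p at most 0.0385). Mmp2 and Thbs2 stayed called with the share outside genes as a covariate but not with the share aligned to several places (0.0633 to 0.113). Cyr61 was not called with either covariate (0.129 to 0.3). Cyr61 was not called without R1, R4, R6 or D2 (0.0508 to 0.0686).

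Transforming growth factor beta and bone morphogenetic protein (BMP) signals can act against each other in the kidney, and Grem1 is a secreted BMP antagonist. Of 26 tested genes of these pathways 3 rose and 3 fell (median 0.036), against 1.84% higher and 2.1% lower over all tested genes. Among ligands Bmp3, a BMP that antagonises others, fell 3.95-fold, from a median of 202 (155 to 444) to 53.5 (41.5 to 101), with a log2 fold change of -1.94 ± 0.31 (adjusted p = 0.00131). Bmp4 rose from a median of 889 (652 to 1136) to 1474 (1354 to 1651), with a log2 fold change of 0.77 ± 0.18 (adjusted p = 0.0187). The antagonist Grem1 fell from a median of 1463 (691 to 2065) to 511 (311 to 1004), with a log2 fold change of -1.33 ± 0.31 (adjusted p = 0.0203). Among targets Id3, an inhibitor of differentiation that BMP signals induce, rose from a median of 604 (353 to 806) to 1296 (673 to 1807), with a log2 fold change of 1.11 ± 0.24 (adjusted p = 0.0129). Id1, of the same family, rose as well (1.07 ± 0.26, 0.027). Bmp6 fell (-0.47 ± 0.12, 0.0309), a call that held in 12 of the 18 fits without 1 library and with neither covariate. Bmp3 and Bmp4 showed no overlap between the groups, and Grem1 and Id3 did. Bmp3 stayed called with either read share as a covariate (adjusted p at most 0.0208). Bmp4, Grem1, Id3 and Id1 were not called with either covariate (0.0699 to 0.39). Grem1 was not called without R5, R6, D1 or D2 (0.0514 to 0.0567). Id1 was not called without R1, R4, R6, D1, D2 or D6 (0.0558 to 0.0735).

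**Figure D3:**
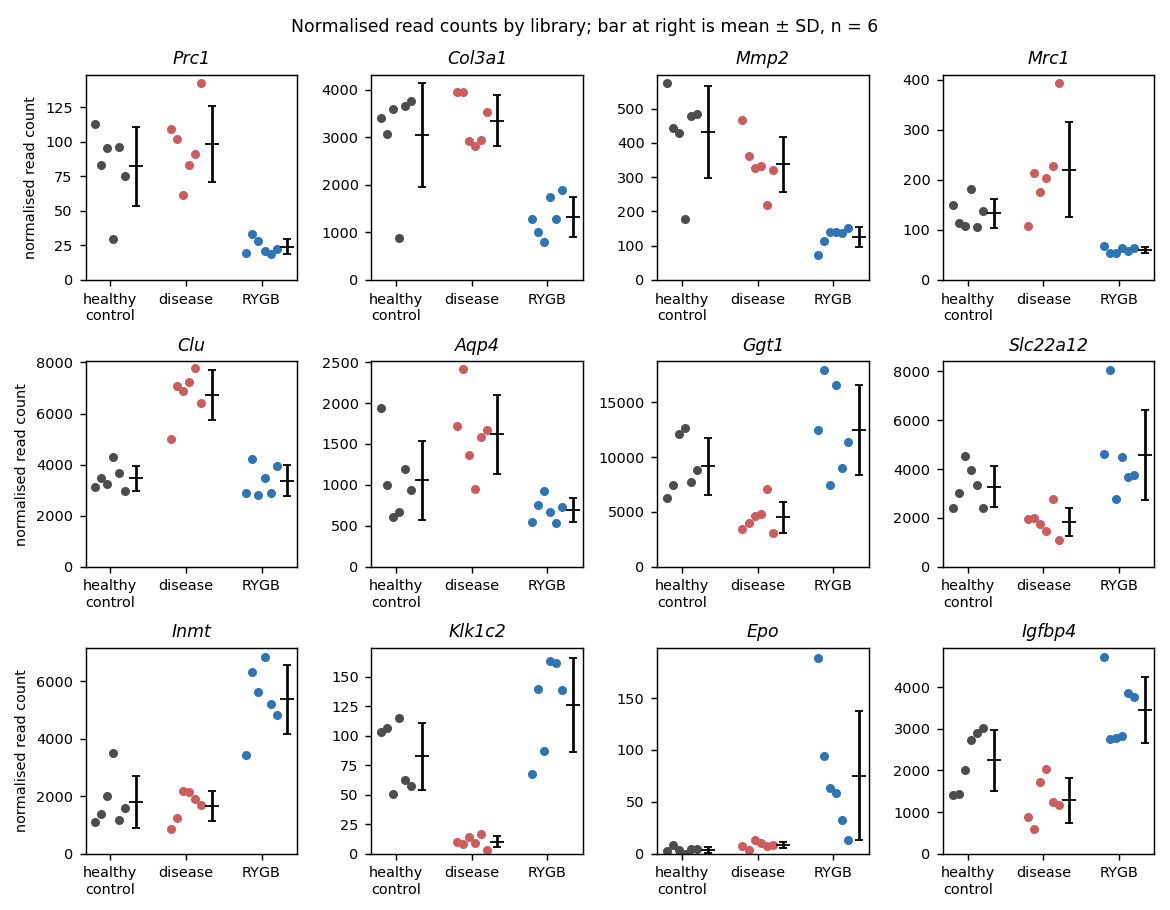
Normalised read counts (vertical axes, linear, from 0) of 12 genes in the 6 healthy control (grey), 6 disease (red) and 6 RYGB (blue) libraries; each point shows 1 library and the bar to its right is the mean ± SD. Prc1, Col3a1, Mmp2, Mrc1, Clu and Aqp4 are lower in every RYGB library than in every disease library, and Ggt1, Inmt, Klk1c2, Epo and Igfbp4 are higher in every one, while Slc22a12 overlaps in 1 library pair (R3 at 2776 and D5 at 2789).

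More tubular injury genes fell than rose. These are genes that damaged or regenerating tubule cells switch on. Of 28 tested members 7 fell and 1 rose (median -0.27), against 2.1% lower and 1.84% higher over all tested genes. The members' summed level was 50878 to 78660 in disease and 35372 to 42617 in RYGB. This sum leans on members with many reads, among them Spp1 and Clu below, and does not speak for the list as a whole. Havcr1, kidney injury molecule 1, had a median of 990.2 (401 to 3065) in disease and 31.5 (15.3 to 92.2) in RYGB, 31.9 times lower (log2 fold change -4.96 ± 0.68, adjusted p = 0.000471). Osteopontin Spp1 had a median of 23377 (9794 to 30777) and 4693 (3885 to 6410), with a log2 fold change of -2.14 ± 0.23 (adjusted p = 5.41e-05). Clusterin Clu, a secreted chaperone, fell 2.00-fold, from a median of 6975 (4995 to 7790) to 3184 (2815 to 4218), with a log2 fold change of -1.002 ± 0.13 (adjusted p = 0.000344). The intermediate filament vimentin (Vim), which dedifferentiated tubule cells make, fell from a median of 3874 (2808 to 5093) to 2497 (1918 to 2894), with a log2 fold change of -0.66 ± 0.14 (adjusted p = 0.0129). In Havcr1, Spp1 and Clu the groups did not overlap, and in Vim they did by a small margin. The RYGB minus healthy control values were -0.33 ± 0.68, adjusted p = 0.777 for Havcr1, 0.36 ± 0.23, adjusted p = 0.315 for Spp1, -0.045 ± 0.13, adjusted p = 0.844 for Clu and -0.056 ± 0.14, adjusted p = 0.817 for Vim. Keratin 19 (Krt19), an epithelial filament also counted among injury genes, rose from a median of 81.5 (47.3 to 115) to 172 (140 to 198) with no overlap (log2 fold change 1.08 ± 0.22, adjusted p = 0.00783). The count of falls was 4 without R5 or R6, and 5 with the share outside genes as a covariate, 5 with the share aligned to several places and 5 with the clock components. Havcr1, Spp1, Clu and Vim stayed called with either read share as a covariate (adjusted p at most 0.0494). Krt19 stayed called with the share outside genes as a covariate but not with the share aligned to several places (0.144).

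Podocytes are the filter cells of the glomerulus. Of 30 tested podocyte markers 0 rose and 1 fell, against 1.84 and 2.1% over all tested genes (median -0.085), and their summed level was 51591 to 68568 in disease and 55184 to 60381 in RYGB. Nphs1 did not pass (log2 fold change -0.027 ± 0.17, adjusted p = 0.945), and the interval of its difference ran from -0.39 to 0.34. The one that fell was nestin (Nes), an intermediate filament of podocytes, from a median of 452 (375 to 747) to 265 (172 to 453) with overlap (log2 fold change -0.84 ± 0.23, adjusted p = 0.049). Of 13 glomerular stress genes 1 fell, desmin (Des), an intermediate filament of smooth muscle and mesangial cells that stressed podocytes also make. Des had 604 to 927 in the disease libraries (median 750.4) and 379 to 542 in the RYGB libraries (median 429) without overlap (log2 fold change -0.78 ± 0.13, adjusted p = 0.00226), and RYGB minus healthy control was 0.084 ± 0.13, adjusted p = 0.698. Of 20 endothelial markers 0 were called (the vascular endothelial growth factor receptor Kdr: log2 fold change -0.037 ± 0.14, adjusted p = 0.907). Des stayed called with either read share as a covariate (adjusted p at most 0.0124). Nes was not called with either covariate (0.167 to 0.226). Nes held its call in 4 of the 18 fits without 1 library (0.0521 to 0.128 in the other fits). Nes was not called without the filter (0.056), at a minimum value of 50 (0.0532), on TMM-scaled log2 CPM (0.0523), by edgeR (0.0698) or with disease and RYGB fitted alone (0.0617) either.

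Proximal tubule markers rose where they were called. This segment takes back glucose, amino acids, phosphate and peptides and secretes organic ions and drugs. Of 49 tested markers 11 rose and 0 fell, against 1.84% higher over all tested genes, and 38 had a positive fold change (median 0.51, all genes -0.001). Gamma-glutamyltransferase Ggt1, a brush border enzyme of glutathione breakdown, rose 2.76-fold, from a median of 4323 (3081 to 7048) to 11928 (7468 to 17976), with a log2 fold change of 1.45 ± 0.23 (adjusted p = 0.00139). The urate transporter Slc22a12 (URAT1) rose 2.47-fold, from a median of 1840 (1112 to 2789) to 4120 (2776 to 8063), with a log2 fold change of 1.28 ± 0.23 (adjusted p = 0.00368). The organic cation transporter Slc22a2 (OCT2) rose 2.45-fold, from a median of 2410 (2143 to 3940) to 6170 (3507 to 10114), with a log2 fold change of 1.22 ± 0.23 (adjusted p = 0.00559), and the peptide transporter Slc15a2 (PEPT2) 2.34-fold, from a median of 1093 (805 to 1580) to 2134 (1627 to 4238), with a log2 fold change of 1.15 ± 0.23 (adjusted p = 0.0076). Ggt1 and Slc15a2 did not overlap between the groups. In Slc22a2 and Slc22a12 D5 alone reached the RYGB range. These 4 were called in each of the 18 fits without 1 library. The other 7 were not, and the count was 4 without D1 or R4, 5 without D2, R1, R2 or R5, 6 without R6 and 7 without H2, H6 or D6. It was 4 with the share outside genes as a covariate, 0 with the share aligned to several places and 5 with the clock components. Ggt1, Slc22a12, Slc22a2 and Slc15a2 stayed called with the share outside genes as a covariate but not with the share aligned to several places (0.0516 to 0.234).

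The next segments moved less, and their counts are to be read against 1.84% higher and 2.1% lower over all tested genes. Of 14 thick ascending limb markers 3 rose and 0 fell, 13 had a positive fold change and the median was 0.41. They were Umod (1.13 ± 0.28, 0.0294) and the claudins Cldn19 (1.10 ± 0.27, 0.0265) and Cldn10 (0.43 ± 0.12, 0.0438), which set the paracellular path for cations. The highest Umod value in disease was again D5 (52350). Of 19 distal convoluted and connecting tubule markers 4 rose and 0 fell, although the median was -0.18. They were the kallikreins Klk1c2 and Klk1c10, the calcium-binding protein S100g and the parathyroid hormone receptor Pth1r, all described below. Of 18 principal cell markers of the collecting duct 2 fell. The water channel Aqp4, in the basolateral membrane, had 952 to 2414 in the disease libraries (median 1631) and 533 to 927 in the RYGB libraries (median 695) without overlap (log2 fold change -1.20 ± 0.24, adjusted p = 0.00878). The water channel Aqp3, in the same membrane, fell from a median of 3431 (3324 to 4768) to 2161 (1853 to 4493), with a log2 fold change of -0.62 ± 0.17 (adjusted p = 0.0444), with R2 (4493) inside the disease range. Of 18 intercalated cell markers 0 were called. Aqp4 stayed called with the share outside genes as a covariate but not with the share aligned to several places (0.172). Aqp3 stayed called with the share aligned to several places as a covariate but not with the share outside genes (0.109). Umod, Cldn19 and Cldn10 were not called with either covariate (0.102 to 0.505). Cldn10 and Aqp3 held their calls in 7 and 4 of the 18 fits without 1 library (0.051 to 0.11 in the other fits). Umod was not called without R1, R2, R4, D1, D4 or D6 (0.0569 to 0.0729), after quantile normalization (0.13) or with disease and RYGB fitted alone (0.0704). Cldn19 was not called without R2, R4, D1, D4 or D6 (0.051 to 0.0695) or with disease and RYGB fitted alone (0.0664). Cldn10 was not called with disease and RYGB fitted alone (0.0744) either. Aqp3 was not called without the filter (0.0505), after quantile normalization (0.0696), on TMM-scaled log2 CPM (0.0516), by edgeR (0.0881) or with disease and RYGB fitted alone (0.0909) either.

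**Figure D4:**
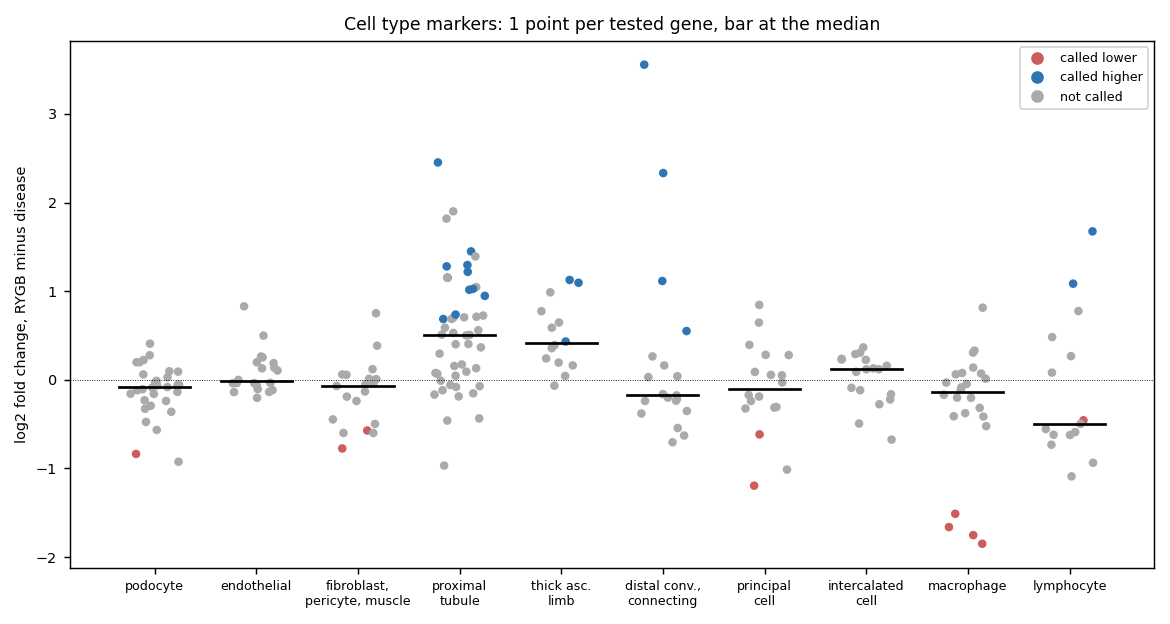
Log2 fold change of RYGB minus disease (vertical axis) of every tested marker of 10 cell types, 1 point per gene with the bar at the median; points are spread sideways for sight only. Blue points were called higher, red lower and grey were not called; proximal tubule (median 0.51) and thick ascending limb (0.41) markers sit mostly above 0, and the podocyte (-0.085) and endothelial (-0.018) medians are near 0.

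Genes of vitamin D, calcium and phosphate handling rose where they were called. Proximal tubule cells make active vitamin D with Cyp27b1, under the control of parathyroid hormone (through Pth1r) and of the phosphate hormone FGF23 (through Fgf receptors with klotho). Of 27 tested members 5 rose and 0 fell (median 0.10), against 1.84% higher and 2.1% lower over all tested genes. Cyp27b1 had 39.2 to 172 in the disease libraries (median 121) and 632 to 4595 in the RYGB libraries (median 1900), 19.4 times higher (log2 fold change 3.97 ± 0.49, adjusted p = 0.000325). R4, R5 and R6 (3307, 4595 and 2941) were above R1, R2 and R3 (858, 632 and 739), the same libraries that part in the clock genes, and all 6 were above the disease range. Fgfr3 rose from a median of 379.8 (254 to 422) to 558 (471 to 742), with a log2 fold change of 0.69 ± 0.15 (adjusted p = 0.0163) and Fgfr4 from a median of 749.7 (511 to 1013) to 1400 (866 to 1677), with a log2 fold change of 0.85 ± 0.20 (adjusted p = 0.0205). Pth1r rose from a median of 10086 (7120 to 11843) to 14558 (12303 to 15118), with a log2 fold change of 0.55 ± 0.14 (adjusted p = 0.0341). S100g, the vitamin D-dependent calcium-binding protein calbindin-D9k, rose 2.10-fold, from a median of 108 (87.2 to 190.4) to 283 (205 to 323), with a log2 fold change of 1.12 ± 0.29 (adjusted p = 0.0356). All of these but Fgfr4 were free of overlap, and all 5 were higher in RYGB than in healthy control too (log2 fold change 0.60 for Pth1r to 4.11 for Cyp27b1, adjusted p at most 0.0293). In S100g H4 stood at 323.8, above every RYGB library, and the other healthy control libraries at 79.0 to 92.8. In Pth1r H4 (12368) was above R3 (12303). The count of 5 was 2 without D2 and 3 without D1, D6, R1, R2, R4, R5 or R6, and 2 with the share outside genes as a covariate, 1 with the share aligned to several places and 2 with the clock components. Cyp27b1 stayed called with either read share as a covariate (adjusted p at most 0.00493). Fgfr3 stayed called with the share outside genes as a covariate but not with the share aligned to several places (0.224). Fgfr4, Pth1r and S100g were not called with either covariate (0.0561 to 0.433). Pth1r and S100g held their calls in 11 and 11 of the 18 fits without 1 library (0.0544 to 0.0926 in the other fits). Fgfr4 was not called without R4, D1 or D2 (0.053 to 0.057). S100g was not called by edgeR (0.0559) either.

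Iron uptake genes rose and haem breakdown and iron export genes fell, where called. Cells take up iron with the transferrin receptor Tfrc and the metal transporter Slc11a2, break haem down with Hmox1, and oxidise iron for export with ceruloplasmin Cp and hephaestin Heph. Of 28 tested members 2 rose and 4 fell (median 0.073), against 1.84% higher and 2.1% lower over all tested genes. The 2 that rose were the uptake genes Tfrc and Slc11a2. Tfrc had 1157 to 3227 in the disease libraries (median 1542) and 4940 to 6485 in the RYGB libraries (median 5638) without overlap (log2 fold change 1.68 ± 0.21, adjusted p = 0.000334), and Slc11a2 2312 to 3649 in the disease libraries (median 2824) and 3487 to 5974 in the RYGB libraries (median 4440) with overlap (log2 fold change 0.64 ± 0.16, adjusted p = 0.0269). Hmox1 had 165 to 2332 in the disease libraries (median 216) and 42.7 to 84.1 in the RYGB libraries (median 53.1), with a log2 fold change of -2.86 ± 0.69 (adjusted p = 0.0252). Its disease values were split, with D2 and D4 at 1558 and 2332 and the other 4 at 165 to 222. Heph fell from a median of 587 (432 to 745) to 379 (270.2 to 447), with a log2 fold change of -0.66 ± 0.16 (adjusted p = 0.0275) and Cp from a median of 2078 (1711 to 3849) to 1316 (1076 to 2049), with a log2 fold change of -0.74 ± 0.18 (adjusted p = 0.0267). The other fall was Bmp6, which induces the iron hormone hepcidin (-0.47 ± 0.12, 0.0309). With either covariate 0 of the falls were called. The 4 falls were 0 without D2 or R4, 1 without R6 and 2 without D1, R2 or R5. Tfrc stayed called with either read share as a covariate (adjusted p at most 0.000252). Slc11a2, Hmox1, Heph and Cp were not called with either covariate (0.109 to 0.428). Slc11a2 was not called without R1, R4, R5, D1, D2 or D6 (0.0584 to 0.0742). Hmox1 was not called without R4, R6 or D2 (0.0526 to 0.0655). Heph was not called without R2, R4, D1, D2 or D6 (0.0555 to 0.0734). Cp was not called without R2, R4, R5, R6 or D2 (0.0539 to 0.0633) or with disease and RYGB fitted alone (0.0506).

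Oxygen sensing gave a low-count gene with a wide rise. Erythropoietin (Epo), the red cell hormone that interstitial cells of the cortex make under low oxygen, had 3.92 to 12.8 in the disease libraries (median 8.10) and 13.2 to 189 in the RYGB libraries (median 61.0) and 0 to 8.41 in healthy control. The 6 RYGB values were 189, 94.6, 63.4, 58.7, 32.6 and 13.2 for R1 to R6, and the lowest stood only just above the highest disease library (log2 fold change 2.66 ± 0.54, adjusted p = 0.00878). Of 21 tested genes of oxygen sensing and red cells 3 rose and 0 fell (median -0.034), against 1.84% higher and 2.1% lower over all tested genes. Hif3a, a hypoxia-inducible factor subunit, rose from a median of 3.37 (1.70 to 20.04) to 41.7 (9.84 to 52.6), with a log2 fold change of 2.64 ± 0.59 (adjusted p = 0.0163). D5 (20.04) was far above the other disease libraries. The third was the glucose transporter Slc2a1 (GLUT1), from a median of 705 (429 to 1150) to 1093 (884 to 1617), with a log2 fold change of 0.69 ± 0.19 (adjusted p = 0.0424). Epo stayed called with the share outside genes as a covariate but not with the share aligned to several places (0.144). Hif3a and Slc2a1 were not called with either covariate (0.0796 to 0.572). Slc2a1 held its call in 6 of the 18 fits without 1 library (0.0521 to 0.103 in the other fits). Slc2a1 was not called after quantile normalization (0.0575) or with disease and RYGB fitted alone (0.094) either.

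Among immune genes a small set of macrophage genes fell. Of 24 tested macrophage markers 4 fell and 0 rose, against 2.1% lower and 1.84% higher over all tested genes. Each fall was called in all 18 fits without 1 library. The count was 4 with either read share as a covariate and 4 with the clock components. The list's median was -0.14, its summed level was 11272 to 14473 in disease and 10357 to 14095 in RYGB, and 20 markers did not pass. The mannose receptor Mrc1 (CD206) had 107 to 394 in the disease libraries (median 209) and 54.0 to 67.2 in the RYGB libraries (median 60.7), with a log2 fold change of -1.75 ± 0.22 (adjusted p = 0.000334). The lectin Clec10a (CD301) had 109.6 to 239 in the disease libraries (median 199) and 33.9 to 87.1 in the RYGB libraries (median 57.2), with a log2 fold change of -1.66 ± 0.22 (adjusted p = 0.000425). These 2 are known from macrophages of the alternatively activated kind. Gpnmb, a glycoprotein of lipid-laden macrophages and of lysosome stress, fell from a median of 296 (189 to 504) to 102 (76.7 to 159), with a log2 fold change of -1.51 ± 0.22 (adjusted p = 0.000779). Trem2, a lipid-sensing receptor, had low counts, 7.47 to 54.0 in the disease libraries (median 22.4) and 4.41 to 7.65 in the RYGB libraries (median 5.12), with a log2 fold change of -1.85 ± 0.33 (adjusted p = 0.00353). RYGB libraries were the low ones in all 4, with overlap in Trem2 only. Mrc1, Clec10a, Gpnmb and Trem2 stayed called with either read share as a covariate (adjusted p at most 0.0164).

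Other immune lists held calls in both directions, to be read against 1.84% higher and 2.1% lower over all tested genes. Of 39 tested chemokines, cytokines and receptors 2 rose and 2 fell. The chemokine Ccl5, which draws T cells, rose from a median of 31.9 (10.2 to 37.4) to 72.7 (63.2 to 85.1), with a log2 fold change of 1.48 ± 0.25 (adjusted p = 0.00224), and the eosinophil attractant Ccl24 from a median of 74.5 (49.0 to 82.5) to 137 (117 to 167), with a log2 fold change of 0.99 ± 0.21 (adjusted p = 0.0107). The monocyte attractant Ccl2 fell from a median of 123 (77.3 to 176) to 46.1 (36.1 to 74.3), with a log2 fold change of -1.29 ± 0.33 (adjusted p = 0.0341), and Birc3, an NF-kappa-B target, from a median of 169 (146 to 229.7) to 104 (84.2 to 121), with a log2 fold change of -0.79 ± 0.18 (adjusted p = 0.0168). None of these 4 overlapped. Of 15 lymphocyte markers the cytotoxic granule genes Gzmk (1.09 ± 0.29, 0.0383) and Nkg7 (1.68 ± 0.45, 0.0421) rose and Cd4 fell (-0.46 ± 0.13, 0.0494), all near the threshold, and the median of the list was -0.50. Gzmk and Nkg7 had low counts, with means of 6.61 and 6.90 in disease and 15.3 and 20.2 in RYGB. The cytotoxic granule genes Gzma (0.78 ± 0.47, 0.356) and Prf1 (0.48 ± 0.29, 0.349) were not called. Cd4 had a mean of 545 in disease, far above the T cell genes Cd3e (27.9) and Cd3g (25.2). Which cells its reads came from was not tested. Of 20 complement genes 1 fell, the terminal component C6, from a median of 60.9 (48.5 to 67.3) to 15.02 (7.65 to 25.9), with a log2 fold change of -1.86 ± 0.24 (adjusted p = 0.000334). Of 22 coagulation genes 1 rose, the plasmin inhibitor Serpinf2 (0.79 ± 0.18, 0.0161), and 2 fell, fibrinogen Fgb (-1.51 ± 0.29, 0.00661) and protein S Pros1 (-0.42 ± 0.11, 0.0397). Of 31 interferon response genes, 4 MHC class II genes and 4 neutrophil and mast cell genes 0 were called (B2m, which MHC class I needs: log2 fold change -0.011 ± 0.13, adjusted p = 0.968). C6 stayed called with either read share as a covariate (adjusted p at most 0.00493). Ccl5, Serpinf2 and Fgb stayed called with the share outside genes as a covariate but not with the share aligned to several places (0.0602 to 0.391). Ccl24, Ccl2, Birc3, Gzmk, Nkg7, Cd4 and Pros1 were not called with either covariate (0.0563 to 0.531). Gzmk, Nkg7, Cd4 and Pros1 held their calls in 10, 6, 2 and 6 of the 18 fits without 1 library (0.0504 to 0.119 in the other fits). Ccl2 was not called without R1, R2, R5, D1 or D2 (0.0684 to 0.0847). Cd4 was not called without the filter (0.0568), at a minimum value of 50 (0.0526) or on TMM-scaled log2 CPM (0.0555) either. Pros1 was not called with disease and RYGB fitted alone (0.0569) either.

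Angiotensin and kallikrein genes were higher where called. Angiotensinogen (Agt) is the precursor of the angiotensin peptides, which narrow vessels and keep salt, and tissue kallikreins free kinins. Of 19 tested members 3 rose and 0 fell (median 0.039), against 1.84% higher and 2.1% lower over all tested genes. The kallikrein Klk1c2 had 3.40 to 16.96 in the disease libraries (median 9.55) and 67.2 to 163 in the RYGB libraries (median 139), with a log2 fold change of 3.56 ± 0.32 (adjusted p = 7.21e-06), and its healthy control range was 50.9 to 115. Klk1c10 had 0 to 2.94 in the disease libraries (median 1.47) and 5.51 to 16.4 in the RYGB libraries (median 10.6), with a log2 fold change of 2.33 ± 0.39 (adjusted p = 0.00226), and at these counts the fold change depends on the pseudocount (0.96 with a pseudocount of 8). The RYGB libraries were above all disease libraries in both kallikreins. Agt had 12.5 to 416 in the disease libraries (median 67.9) and 139.9 to 1040 in the RYGB libraries (median 326), with a log2 fold change of 2.42 ± 0.62 (adjusted p = 0.0343), where D5 stood at 416.2 and the other disease libraries at 12.5 to 111. Reads that fit several Klk1c copies were not counted to a gene, so the split between these near-identical paralogs is uncertain. Klk1c2 and Klk1c10 stayed called with either read share as a covariate (adjusted p at most 0.0209). Agt was not called with either covariate (0.155 to 0.55). Agt held its call in 10 of the 18 fits without 1 library (0.051 to 0.0872 in the other fits). Agt was not called by edgeR (0.0683) or with disease and RYGB fitted alone (0.0794) either.

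Of 23 genes of insulin and IGF (insulin-like growth factor) signals 2 rose and 1 fell, against 1.84% higher and 2.1% lower over all tested genes. Igfbp4, a binding protein that holds back IGF, rose 2.70-fold, from a median of 1211 (599.7 to 2037) to 3296 (2764 to 4727) without overlap (log2 fold change 1.52 ± 0.26, adjusted p = 0.00269). The epidermal growth factor receptor Egfr, listed with them, rose from a median of 135 (112 to 156) to 200.4 (170.1 to 261), with a log2 fold change of 0.61 ± 0.13 (adjusted p = 0.0155), also without overlap. Igfbp7 fell from a median of 27839 (22924 to 32885) to 20583 (18312 to 23051), with a log2 fold change of -0.45 ± 0.12 (adjusted p = 0.0356). The leptin receptor Lepr, whose fa allele both groups carry, had 81.5 to 202 in the disease libraries (median 108) and 57.0 to 176 in the RYGB libraries (median 108) and was not called (log2 fold change -0.15 ± 0.26, adjusted p = 0.789). Igfbp4 stayed called with the share outside genes as a covariate but not with the share aligned to several places (0.0809). Egfr and Igfbp7 were not called with either covariate (0.0641 to 0.282). Igfbp7 was not called without R1, R2, R4, R5, D1 or D2 (0.0597 to 0.0927), without the filter (0.0551) or with disease and RYGB fitted alone (0.0647).

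Drug, steroid and eicosanoid metabolism held several large rises, with counts to be read against 1.84% higher and 2.1% lower over all tested genes. Of 28 tested genes of cytochromes P450, conjugation and flavin monooxygenases 5 rose and 2 fell (median 0.40). Cyp1a1, the classic target of the aryl hydrocarbon receptor, had 0 to 6.17 in the disease libraries (median 0.703) and 19.8 to 200.4 in the RYGB libraries (median 29.3), with a log2 fold change of 4.61 ± 0.65 (adjusted p = 0.000514). The disease libraries had 0, 0, 2.13, 1.41, 6.17 and 0 (D1 to D6), so its fitted fold change depends on the pseudocount and was 2.59 with a pseudocount of 8. Inmt, which methylates tryptamine and thioethers, rose 3.23-fold, from a median of 1793 (847 to 2163) to 5401 (3417 to 6842), with a log2 fold change of 1.73 ± 0.26 (adjusted p = 0.000988). Cyp2d4 rose from a median of 264 (208 to 506) to 726 (489 to 835), with a log2 fold change of 1.22 ± 0.26 (adjusted p = 0.0128). Cyp7b1, an oxysterol hydroxylase, fell from a median of 178 (137 to 237) to 99.0 (70.7 to 124), with a log2 fold change of -0.88 ± 0.16 (adjusted p = 0.00343). Cyp2e1 (1.30 ± 0.35, 0.0416) and the flavin monooxygenase Fmo4 (0.61 ± 0.15, 0.0257) rose too and the aldehyde oxidase Aox1 (-0.64 ± 0.16, 0.0288) fell, with calls in 6, 13 and 12 of the 18 fits without 1 library. Of 30 eicosanoid genes 2 rose: the lipoxygenase Alox15 from a median of 75.9 (25.6 to 119.6) to 1207 (499.5 to 3483), with a log2 fold change of 4.16 ± 0.64 (adjusted p = 0.000988), and Cyp4a3, an omega-hydroxylase that can make 20-HETE, from a median of 4837 (3203 to 5926) to 9322 (7222 to 12546), with a log2 fold change of 1.05 ± 0.22 (adjusted p = 0.0107). Of 32 glutathione and NRF2 target genes 2 rose, Ggt1 and the microsomal transferase Mgst1 (0.83 ± 0.14, 0.00226), and 2 fell, Hmox1 and malic enzyme Me1 (-0.53 ± 0.14, 0.0424). Counts of the Cyp paralogs are uncertain in the same way as those of the kallikreins. Cyp1a1, Inmt and Alox15 stayed called with either read share as a covariate (adjusted p at most 0.0474). Cyp7b1 and Mgst1 stayed called with the share outside genes as a covariate but not with the share aligned to several places (0.0617 to 0.0764). Cyp2d4, Cyp4a3 and Me1 were not called with either covariate (0.0561 to 0.191). Me1 held its call in 5 of the 18 fits without 1 library (0.0503 to 0.108 in the other fits).

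The lists of central metabolism held calls in both directions, to be read against 1.84% higher and 2.1% lower over all tested genes. Of 34 glucose handling genes Miox and Slc2a1, given with oxygen sensing, rose and Mgea5, the enzyme that removes O-GlcNAc from proteins, fell (-0.60 ± 0.16, 0.0413). Miox, the proximal tubule enzyme that opens myo-inositol, rose from a median of 24116 (19280 to 44367) to 50231 (45517 to 66336) without overlap (log2 fold change 0.95 ± 0.23, adjusted p = 0.028). Of 23 glycolysis genes 1 rose, the hexokinase Hk3 (1.30 ± 0.27, 0.0118), and 2 fell, the muscle-type mutase Pgam2 (-1.20 ± 0.25, 0.0118) and the pyruvate dehydrogenase kinase Pdk3 (-0.38 ± 0.10, 0.0407). Of 42 fatty acid oxidation genes 0 rose and 1 fell, Acsm5 (-0.58 ± 0.13, 0.0175). Of 46 oxidative phosphorylation subunits 0 rose and 2 fell, Uqcrh (-0.44 ± 0.12, 0.0398) and Cox6c (-0.55 ± 0.15, 0.0449), with a median of -0.15 and 35 negative. Of 35 fatty acid synthesis genes Srebf1, a lipogenic transcription factor, rose (1.11 ± 0.26, 0.0234) and Me1 fell. Of 34 cholesterol and bile acid genes 0 were called. Of 44 amino acid genes 3 rose and 1 fell. The creatine synthesis enzyme Gamt rose 2.31-fold, from a median of 905 (596 to 1441) to 2241 (1375 to 2695), with a log2 fold change of 1.26 ± 0.23 (adjusted p = 0.00353), and the glutamine transporter Slc38a3 (1.06 ± 0.28, 0.0383) and ornithine aminotransferase Oat (0.80 ± 0.22, 0.0481) rose near the threshold. Glycolate oxidase Hao1 fell from a median of 24.5 (11.8 to 54.3) to 3.84 (0 to 8.90), with a log2 fold change of -2.67 ± 0.73 (adjusted p = 0.0428). Hk3 and Gamt stayed called with the share outside genes as a covariate but not with the share aligned to several places (0.146 to 0.157). Pgam2 stayed called with the share aligned to several places as a covariate but not with the share outside genes (0.0607). Miox, Mgea5, Pdk3, Acsm5, Uqcrh, Cox6c, Srebf1, Slc38a3, Oat and Hao1 were not called with either covariate (0.0696 to 0.598). Mgea5, Pdk3, Uqcrh, Cox6c, Slc38a3, Oat and Hao1 held their calls in 9, 6, 7, 5, 10, 5 and 9 of the 18 fits without 1 library (0.0501 to 0.118 in the other fits). Miox was not called without R4, R5, R6, D1, D2 or D6 (0.0563 to 0.0729). Mgea5 was not called with disease and RYGB fitted alone (0.0758) either. Acsm5 was not called without D2 (0.0518). Uqcrh was not called with disease and RYGB fitted alone (0.0923) either. Cox6c was not called without the filter (0.056), on TMM-scaled log2 CPM (0.0513) or with disease and RYGB fitted alone (0.0663) either. Srebf1 was not called without R4, R5, R6, D1, D2 or D6 (0.0518 to 0.0619). Slc38a3 was not called with disease and RYGB fitted alone (0.0594) either. Oat was not called without the filter (0.0568), at a minimum value of 50 (0.0529), after quantile normalization (0.0872) or with disease and RYGB fitted alone (0.0781) either. Hao1 was not called with pseudocount 8 (0.106) either.

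The counts of stress and housekeeping lists are to be read against 1.84% higher and 2.1% lower over all tested genes. Among them, 5 of 43 lysosome and autophagy genes fell and 0 rose. Beside Gpnmb these were the cathepsins Ctsz (-0.51 ± 0.12, 0.0183), Ctsc (-0.39 ± 0.094, 0.0267) and Ctsd (-0.46 ± 0.13, 0.0438) and the proton pump subunit Atp6v1h (-0.29 ± 0.080, 0.049). Of 31 unfolded protein response genes 0 were called. Of 29 immediate-early and heat shock genes 2 rose, Junb from a median of 689.9 (468 to 1036) to 1730 (1027 to 3837), with a log2 fold change of 1.48 ± 0.31 (adjusted p = 0.011) and Jun from a median of 1963 (1615 to 2439) to 5112 (2090 to 7072), with a log2 fold change of 1.16 ± 0.29 (adjusted p = 0.0281), both subunits of AP-1. Of 22 clock genes, which differed widely between libraries of 1 group, Bhlhe40 rose (0.74 ± 0.19, 0.0361). Of 23 p53 family and target genes Tp73, a p53 relative, rose 3.38-fold, from a median of 33.7 (16.96 to 58.8) to 103 (71.0 to 192), with a log2 fold change of 1.78 ± 0.35 (adjusted p = 0.00672), and the p53 target Ccng1 fell from a median of 4510 (3968 to 5728) to 3240 (2758 to 3798), with a log2 fold change of -0.52 ± 0.12 (adjusted p = 0.0167). Tp73 and Ccng1 were free of overlap. Tp73 and Ccng1 stayed called with the share outside genes as a covariate but not with the share aligned to several places (0.0519 to 0.213). Ctsz stayed called with the share aligned to several places as a covariate but not with the share outside genes (0.0607). Ctsc, Ctsd, Atp6v1h, Junb, Jun and Bhlhe40 were not called with either covariate (0.0535 to 0.456). Ctsd, Atp6v1h and Bhlhe40 held their calls in 6, 5 and 10 of the 18 fits without 1 library (0.0515 to 0.12 in the other fits). Ctsz was not called without R1 or D2 (0.0503 to 0.0535). Ctsc was not called without R1, R4, R6, D1 or D2 (0.0526 to 0.0701) or with disease and RYGB fitted alone (0.0578). Ctsd was not called without the filter (0.0602), after quantile normalization (0.0783) or with disease and RYGB fitted alone (0.0653) either. Atp6v1h was not called without the filter (0.0579), on TMM-scaled log2 CPM (0.0578), by edgeR (0.0591) or with disease and RYGB fitted alone (0.102) either. Jun was not called without R1, R4, R5, R6, D1 or D2 (0.0578 to 0.0736).

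**Figure D5:**
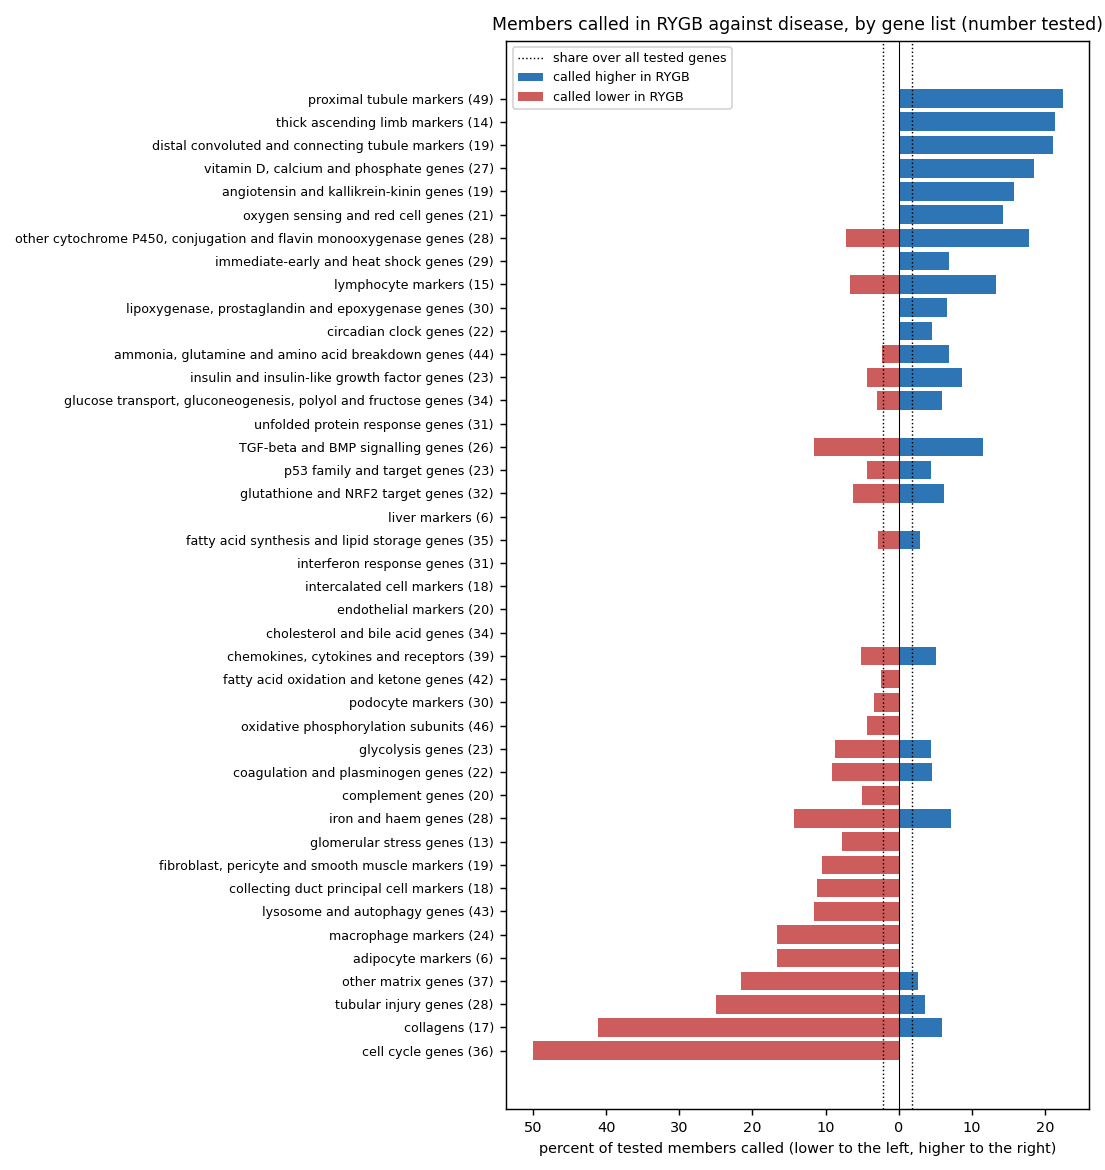
Percent of tested members called higher (blue, to the right) or lower (red, to the left) in RYGB against disease for each gene list with at least 5 tested members (number tested in brackets). Dotted lines mark the share over all tested genes, 1.84% higher and 2.1% lower. Cell cycle genes, collagens and tubular injury genes reach farthest left, and proximal tubule, thick ascending limb and distal tubule markers farthest right. In the distal tubule list 4 of 19 rose (Klk1c2, Klk1c10, S100g and Pth1r), and its median log2 fold change was negative, -0.18.

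Several of the largest or surest changes lay outside these lists. Elfn1, a synaptic adhesion protein, rose 3.16-fold, from a median of 118 (85.3 to 177) to 335 (268 to 623), with a log2 fold change of 1.62 ± 0.22 (adjusted p = 0.000467). The methyltransferase Mettl21b rose 3.35-fold, from a median of 59.2 (50.6 to 82.2) to 214 (113 to 279), with a log2 fold change of 1.69 ± 0.24 (adjusted p = 0.000608). Afamin (Afm), a vitamin E-binding plasma protein, rose from a median of 187 (105 to 304) to 486 (326 to 1105), with a log2 fold change of 1.67 ± 0.31 (adjusted p = 0.00438), and its RYGB minus healthy control value was 0.087 ± 0.31, adjusted p = 0.875. Ccer2 (1.68 ± 0.30, 0.00318) and the POU factor Pou3f1 (1.95 ± 0.39, 0.00878) rose as well. Carbonic anhydrase 3 (Car3) fell 3.81-fold, from a median of 340.1 (264 to 520.3) to 102 (46.5 to 167), with a log2 fold change of -2.01 ± 0.27 (adjusted p = 0.000425). Ubd (FAT10), a ubiquitin-like protein induced by inflammatory cytokines, fell from a median of 759.6 (562 to 994) to 308 (277 to 526), with a log2 fold change of -1.15 ± 0.16 (adjusted p = 0.000467). The phosphatase Ptprv fell 3.41-fold, from a median of 571 (336 to 949.6) to 189.5 (105 to 281), with a log2 fold change of -1.75 ± 0.32 (adjusted p = 0.00353), and the microtubule protein Map7d2 fell too (-1.58 ± 0.26, 0.0018). None of these 9 genes overlapped between the groups, which the rule that named them required. Elfn1, Mettl21b, Car3, Ubd and Ptprv stayed called with either read share as a covariate (adjusted p at most 0.0223). Afm, Ccer2 and Map7d2 stayed called with the share outside genes as a covariate but not with the share aligned to several places (0.0808 to 0.173). Pou3f1 was not called with either covariate (0.0513 to 0.267).

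Of 19 fibroblast, pericyte and smooth muscle markers 0 rose and 2 fell, against 1.84% higher and 2.1% lower over all tested genes (median -0.070). They were Des, counted above among the glomerular stress genes too, and the growth factor receptor Pdgfra of fibroblasts (-0.57 ± 0.14, 0.0298). Pdgfra was not called with either covariate (0.126 to 0.414). Pdgfra held its call in 11 of the 18 fits without 1 library (0.0512 to 0.075 in the other fits). Markers of tissues outside the cortex were counted too, against 3.95% called over all tested genes. Of 6 tested adipocyte markers 1 fell, adiponectin (Adipoq), from a median of 605 (475 to 800.1) to 318 (219 to 605) with overlap (log2 fold change -0.82 ± 0.20, adjusted p = 0.0289). The summed level of the list was 1429 to 2129 in disease and 1350 to 2510 in RYGB. Of 6 liver, 3 skeletal muscle, 2 urothelium and 2 adrenal markers 0 were called. Their summed levels in disease and RYGB were 615.1 to 1633 and 854.1 to 1646 (liver), 43.2 to 77.2 and 43.7 to 63.8 (muscle), 27.2 to 39.4 and 29.9 to 67.6 (urothelium) and 31.4 to 52.3 and 31.1 to 51.8 (adrenal). Adipoq was not called with either covariate (0.131 to 0.135). Adipoq was not called without R1, R4, R5, R6, D1 or D2 (0.055 to 0.0755) or with disease and RYGB fitted alone (0.0596).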

How the data were processed

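Messenger RNA of kidney cortex was sequenced in 18 rat libraries, 6 per group, grouped by their titles. The deposited table, by its name normalised by size factor, gives each gene a signal, its reads divided by a factor per library. FastQC 0.11.2, MultiQC 0.9, HTSeq 0.6.1p1 and DESeq2 on Rnor 5.0 are named, per the submitters' processing notes (aligner and annotation not given in the sources used here). Of 18423 rows, 3 name no gene (reads outside genes, aligned to several places or ambiguous) and entered neither library sizes nor tests. They hold 27.62 to 43.17%, 13.46 to 18.13% and 0.0695 to 0.114% of counted reads. Dividing by the step of each library gave back whole reads (at least 99.9942% of values whole within 0.01 reads).

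The test was limma 3.58.1 in R 4.3.3, run with its trend option on log2(value + 1) and 3 group means over all 18 libraries, for the 13988 genes that reached 10 in 6 or more libraries. Two-sided p-values were adjusted by Benjamini-Hochberg over these genes. The log2 scale understates the change of low genes. Alternatives were edgeR 4.0.16 and DESeq2 1.42.0 on the recovered reads (629 and 1098 genes called, against 552), other filters, pseudocounts and scalings, the 12 libraries alone, a replicate block, each library left out, and 3 sets of covariates added after seeing the data (either read share, and the first 2 components of the clock genes). The fits were tested on simulated data, where a larger share of the calls was false with DESeq2 than with limma or edgeR. In those data genes varied independently, so libraries that lie between the groups were not imitated.

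The members and the 47 lists (1335 symbols, 1158 found, 22 under another symbol) were chosen with earlier results of these data known. Named were called genes with a usable symbol, a mean of at least 100 in either group, no overlap and a call in all 18 fits without 1 library (the 10 highest and 10 lowest fold changes and the 10 lowest adjusted p). Up to 5 called members of each list, the highest member of a list without calls, Lepr and Nphs1 were added, 127 in all. A few genes are not reported here and were left out of the lists.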

Additional observations from a re-analysis of the deposited data

Results flagged for a closer look

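Each value below lay far from the other 5 libraries of its group in a Dixon test of its gap at the 95% level. The search covered the named genes in the disease and in the RYGB group, 254 groups of values, of which 16 passed. Chance alone gives about 1 in 20 groups where values are normally spread, and the test was run on counts without a log. The 16 of 254 are near that rate, so the values are listed as a description only.

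D5 was the high disease library in 5 of the 16. It had 3940 normalised reads of the cation transporter Slc22a2, 2340 of the anion transporter Slco1a6, 20.04 of Hif3a, 6.166 of Cyp1a1 and 416.2 of angiotensinogen Agt. In the other disease libraries these genes lay lower, and all 5 were called higher in RYGB. Other disease libraries stood out in Nes (D1, 747.4), Cd4 (D2, 652.6), the proton pump subunit Atp6v0a4 (D4, 19676) and Hao1 (D6, 54.31), each the highest of the group.

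Among RYGB libraries R2 was the highest in Slc22a12 (8063), Aqp3 (4493) and Pgam2 (201.2). R1 was the highest in Alox15 (3483), R3 in fibrinogen Fgb (189.1) and R4 in Thbs2 (144), and R4 was the lowest in the cathepsin Ctsc (5272).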

How the results depend on the processing

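The 552 genes called, 258 higher and 294 lower, became 1098 (541 and 557) with DESeq2, 165 (66 and 99) with the share of reads outside genes as a covariate, 75 (21 and 54) with the share aligned to several places and 280 (129 and 151) with the clock gene components, the last 3 added after seeing the data. Other filters, pseudocounts, scalings, edgeR and the 12 libraries alone gave 414 to 660 in all. Without 1 library the counts ran from 261 to 819 in all, 113 to 456 higher and 141 to 416 lower, and genes without overlap, 363 with all libraries, from 394 to 709. Leaving out a library leaves fewer values that must not overlap. The median log2 fold change over genes was -0.016 after quantile normalization and 0.015 with TMM, against -0.001. A replicate block gave 408 genes (184 higher and 224 lower), and with disease and RYGB alone 136 (54 and 82). The labels share replicate numbers but do not say that a number pairs rats. Deviations of same-numbered RYGB and disease libraries correlated at -0.0539, 0.309, -0.557, -0.191, -0.46 and -0.289, and 0 of 6 RYGB libraries correlated best with its own number, so the numbers were not taken to pair the samples.

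Among the named genes, sign changes occurred only in genes that were not called. Without 1 library the log2 fold change ran from -0.087 to 0.034 for Kdr, -0.014 to 0.194 for Cd74, -0.062 to 0.059 for B2m, -0.215 to 0.147 for Mylpf, -0.294 to 0.029 for Lepr and -0.103 to 0.029 for Nphs1. B2m turned to 0.004 with TMM and 0.001 with edgeR, and Mylpf to 0.101 after quantile normalization. With the share outside genes as a covariate the values were 0.162 (Kdr), -0.052 (Cd74), -0.071 (Apoe) and 0.227 (Nphs1). With the share aligned to several places they were 0.153 (Kdr), 0.062 (Mylpf), 0.014 (Star), 0.171 (Lepr) and 0.018 (Nphs1). With the clock gene components they were 0.114 (Kdr), -0.059 (Cd74), -0.118 (Apoe) and 0.205 (Nphs1). The cause of these changes was not tested. Depth limits the low genes, such as Cyp1a1 and Klk1c10, whose disease libraries hold 0 to a few reads.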

Other observations

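Gene groups outside the lists were looked at after the values of all genes were seen, and so carry no test as groups. Their counts are to be read against 1.84% higher and 2.1% lower over all tested genes. Inhibitor of DNA binding (Id) proteins block basic helix-loop-helix factors, and Hes1 and Heyl are targets of Notch signals. Of 15 tested members of this group 5 rose and 0 fell. Id4 rose from 858 ± 108 to 2143 ± 323 (mean ± SD, n = 6), and in brackets from here on stand the log2 fold change ± SE and limma's adjusted p (1.31 ± 0.19, 0.000514). Id1 (1.07 ± 0.26, 0.027), Id3 (1.11 ± 0.24, 0.0129), Hes1 (0.61 ± 0.17, 0.0466) and Heyl (0.63 ± 0.17, 0.047) were the others, and Id1, Hes1 and Heyl were called in 12, 6 and 5 of the 18 fits without 1 library.

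A group gathered around methionine and methyl transfer also rose where called, 6 of 24 tested and 0 lower. The 6 include Aspg (222 ± 234 to 1251 ± 1106, with 2.52 ± 0.53, 0.0118), which breaks down asparagine and is not itself a gene of methionine or methyl transfer. Besides Inmt and Gamt the others were Ahcy, which clears S-adenosylhomocysteine (3122 ± 680.1 to 5537 ± 1202, with 0.82 ± 0.19, 0.0205), Mat2a, which makes S-adenosylmethionine (2953 ± 822 to 4891 ± 936, with 0.75 ± 0.18, 0.0211), and Cth of cysteine synthesis (0.61 ± 0.17, 0.0413). Ahcy, Mat2a and Cth were called in 15, 16 and 8 of the 18 fits.

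Red cell and platelet genes were higher in 7 of 25 tested and lower in 0. The haemoglobin chaperone Ahsp rose from 6.42 ± 3.62 to 26.9 ± 11.9 (1.94 ± 0.38, 0.00624), beta-spectrin Sptb from 629 ± 79.1 to 922 ± 101 (0.56 ± 0.12, 0.0123) and the RNA-binding protein Rbm38 from 278 ± 74.9 to 527 ± 126 (0.92 ± 0.20, 0.0147), and these 3 were called in all 18 fits. The platelet genes Pf4 (1.17 ± 0.29, 0.0265), Itga2b (0.65 ± 0.17, 0.0355) and Mpig6b (0.92 ± 0.25, 0.0455) and the haem-binding Hebp1 (0.75 ± 0.17, 0.0189) were called in 14, 10, 7 and 16 of them. Of 5 tested kallikreins 4 rose, among them Klk1c6 (2.40 ± 1.71 to 20.01 ± 7.95, with 2.69 ± 0.36, 0.000425) and Klk4 (11.9 ± 4.75 to 43.0 ± 14.6, with 1.79 ± 0.32, 0.00318). Id4, Ahsp, Sptb and Klk1c6 stayed called with either read share as a covariate. Klk4 stayed called with the share outside genes as a covariate only. Id1, Id3, Hes1, Heyl, Aspg, Ahcy, Mat2a, Cth, Rbm38, Pf4, Itga2b, Mpig6b and Hebp1 were called with neither.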
